A study of Mus musculus with 16 samples.

Results

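Transcription factor genes of the basic helix-loop-helix (bHLH) class were followed through a study of cardiac fibroblasts: Tcf21, the E-protein genes Tcf3, Tcf4 and Tcf12, the Twist genes Twist1 and Twist2, and the inhibitor genes Id1, Id2, Id3 and Id4. They were chosen by symbol, for their known place in 1 dimerization network, as 10 of the 18634 genes in the table for Tcf21 loss in uninjured hearts, of 17303 in the table for Tcf21 loss under infusion and of 17730 in the table for TCF21 gain. Earlier results of these data were known when they were chosen. All 10 genes were listed in each of the 3 tables, and all 10 passed the filter on low values there.

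bHLH factors bind DNA as dimers, through the basic region, at short sequences called E boxes. Tissue-restricted members such as Tcf21 and Twist1 bind with a partner from the broadly expressed E proteins. Id proteins have the helix-loop-helix part but no basic region, so an E protein held by an Id cannot bind DNA, and the balance of E proteins, tissue-restricted factors and Ids is a textbook way of setting bHLH activity. Tcf21 marks and shapes the cardiac fibroblast lineage, which makes the matrix of the heart and turns into myofibroblasts during fibrosis.

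Fibroblasts of mice aged 8 to 12 weeks were sorted by flow cytometry for EGFP, which Cre had switched on from a Rosa26 loxP-STOP-loxP EGFP reporter carried by all the mice, and RNA was sequenced in 16 libraries. In uninjured hearts, 3 libraries of Tcf21-MerCreMer:Tcf21-fl mice (floxed Tcf21) were set against 3 of Tcf21-MerCreMer mice, all taken 2 weeks after tamoxifen. Under infusion with angiotensin II and phenylephrine for 1 week, which drives cardiac fibrosis, 2 libraries of Tcf21-MerCreMer:Tcf21-fl mice were set against 3 of Tcf21-MerCreMer mice, all given tamoxifen. In the gain arm, also given tamoxifen and the same infusion, 2 libraries of Pdgfra-creERT:Col1a1-TCF21 mice were set against 3 of Pdgfra-creERT mice. Tcf21-MerCreMer, a Cre under the control of the Tcf21 locus, was thus in every loss library, controls included, and in no gain library, where Cre was driven by Pdgfra, a fibroblast receptor gene. Each sort took cells in which that Cre had acted. Whether each library stands for its own animal is not said in the labels, and the p-values therefore cover the spread among libraries, part of which may be technical.

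The values are normalized counts, made by the authors separately for each of the 3 tables, so levels are compared within a table only. Each library's values summed to between 27814940 and 40970391. Of the 8 fibroblast markers (Pdgfra, Col1a1 and others) all were listed in every table, with a summed level of 2936190 to 4590370 per library, while 8 endothelial markers such as Pecam1 and Cdh5 summed to only 268 to 861. In these bulk samples fewer cells with a transcript and less of it per cell cannot be told apart.

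Of the 10 genes, Tcf21 was the 1 that passed the test when Tcf21 was deleted, with and without infusion, whereas Tcf21, Id1, Id2 and Id4 rose together in the gain arm. A gene was called changed where the adjusted p was below 0.05 (limma on log2 values, Benjamini-Hochberg over all genes tested). In uninjured hearts 1 of the 10 genes was lower and 0 were higher, where 3.58% of the 15544 genes tested were called, 1.63% higher and 1.96% lower. Under infusion 1 of the 10 was lower and 0 were higher, where 0.912% of 14799 genes were called, 0.324% higher and 0.588% lower. In the gain arm 4 of the 10 were higher and 0 were lower, where 4.14% of 15369 genes were called, 1.57% higher and 2.57% lower. Tcf21, the gene deleted or added by design, is 1 of the called genes in each comparison. The 10 genes were chosen with earlier results known, so these counts are no test of the list. The median log2 fold change of the 10 genes was 0.06, -0.13 and 0.17 in that order, beside -0.01, 0.00 and 0.01 over all genes tested. In the same order, 2, 4 and 5 of the 10 had an unadjusted p below 0.05 in limma. Over all genes tested 3290 of 15544, 2376 of 14799 and 3138 of 15369 did. Later counts at that level are to be read beside these.

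**Figure D1:**
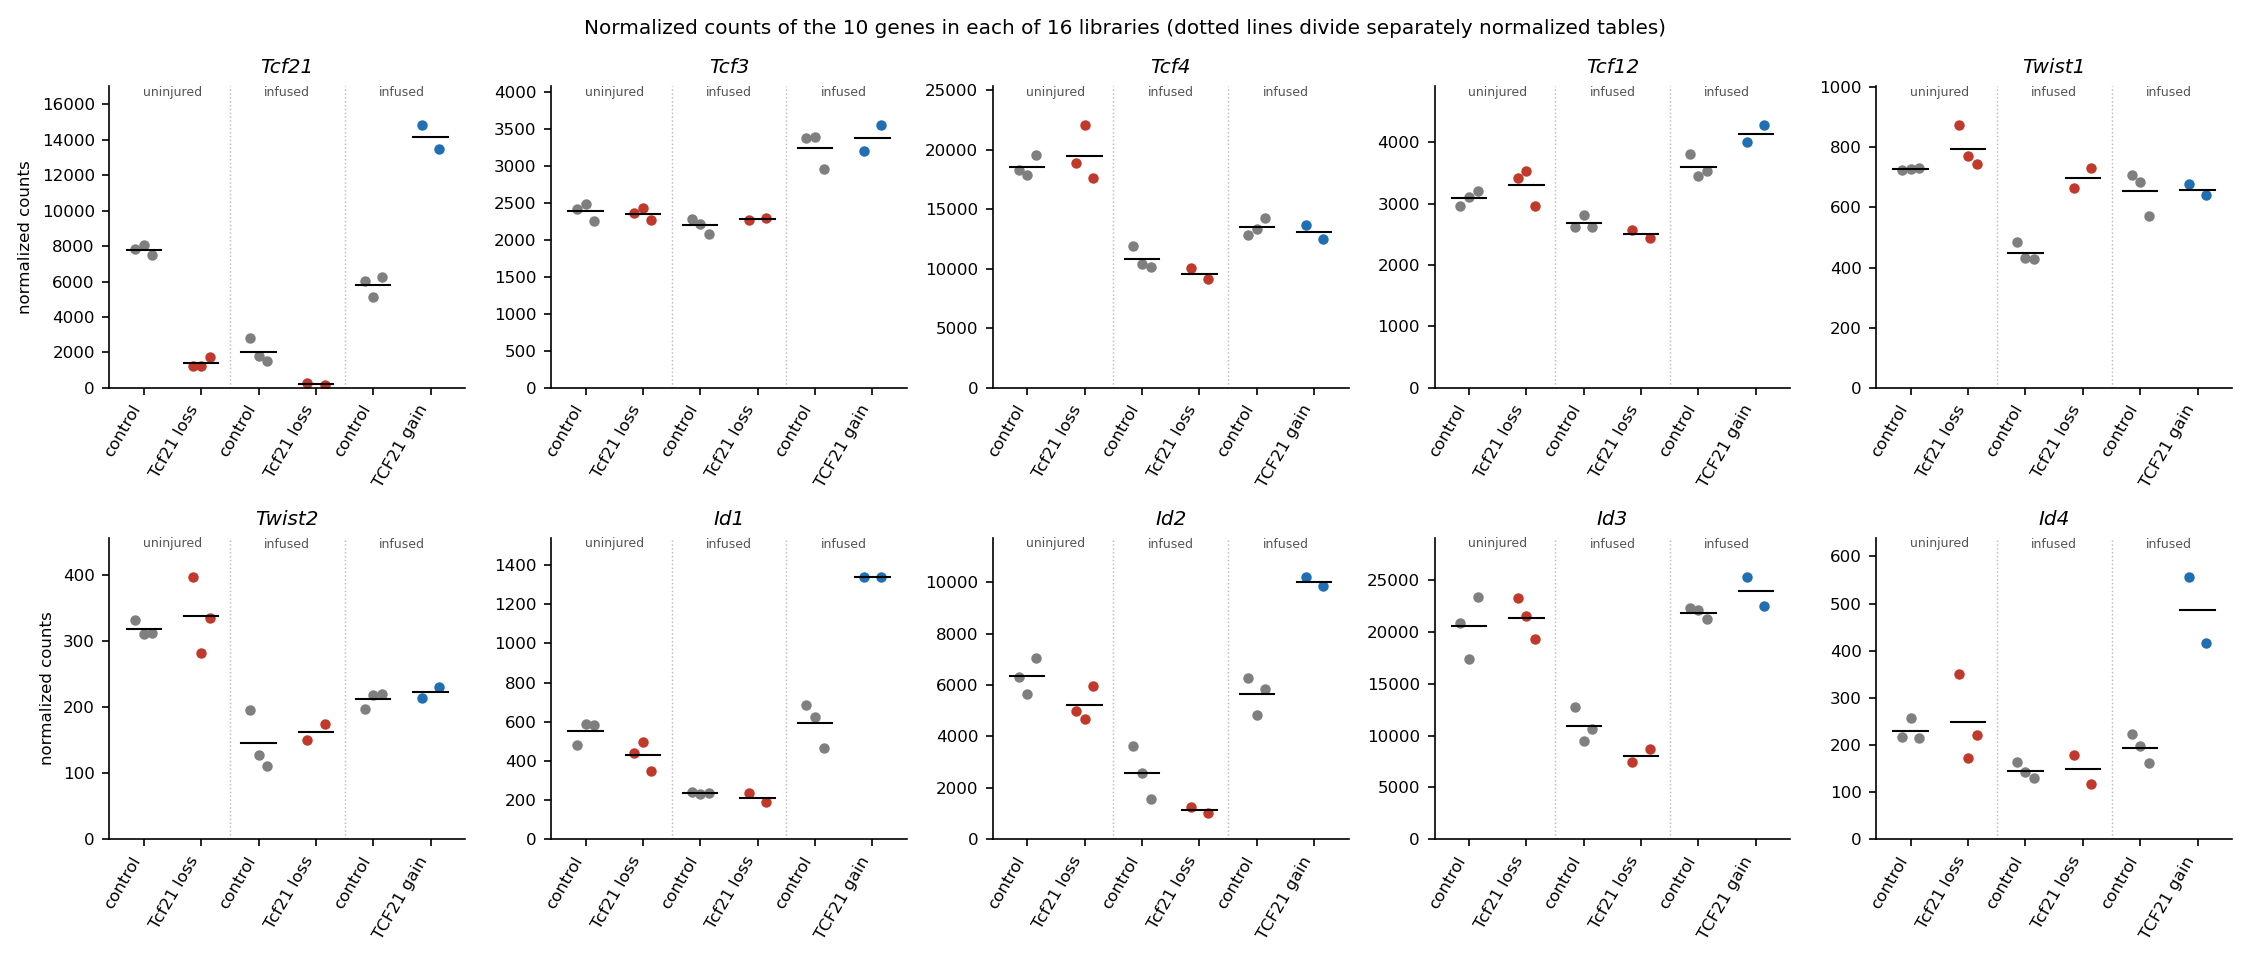
Normalized counts (vertical axes, from 0) of the 10 genes in each of the 16 libraries, with 1 point per library and a bar at each group's mean. Dotted lines divide the 3 separately normalized tables. Tcf21 fell after deletion and rose in the gain libraries, where the points of Id1, Id2 and Id4 also lie above all 3 of their controls.

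Tcf21 (ENSMUSG00000045680) lies on chromosome 10 from 22817281 to 22820174 on the minus strand (GRCm38). In uninjured hearts its normalized counts were 7825, 8081 and 7507 in the control libraries and 1244, 1254 and 1718 after deletion. The groups were far apart, and every deleted library still held Tcf21 reads. The mean was 7805 ± 288 (SD, n = 3) in controls and 1405 ± 271 (SD, n = 3) after deletion, which is 5.56-fold lower. On the log2 scale Tcf21 fell by 2.49 with an SE of 0.126 (adjusted p = 4.22e-05). The labels do not say which part of Tcf21 was floxed, so counts from cells that kept the gene and from transcripts lacking that part cannot be told apart.

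Under infusion Tcf21 stood at 2814, 1802 and 1509.8 in the control libraries and at 258 and 185 after deletion. The controls spread more widely here than in uninjured hearts, but no control came near the deleted libraries. Tcf21 was 9.21-fold lower and fell by 3.17 on the log2 scale with an SE of 0.276 (adjusted p = 0.00494). That call needs both deleted libraries: the adjusted p was 0.0519 without the one numbered 1 and 0.0792 without the one numbered 2. The log2 fall under infusion differed from that in uninjured hearts by -0.68, with a 95% interval of -1.38 to 0.03 (interaction contrast, adjusted p = 0.450). That contrast spans 2 separately normalized tables, so infusion and table cannot be told apart in it.

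In the gain arm Tcf21 stood at 6058, 5145 and 6235 in the control libraries and at 14819.6 and 13502 in the gain libraries. Both gain libraries lay above all 3 controls. The gene was 2.44-fold higher, a log2 rise of 1.29 with an SE of 0.109 (adjusted p = 0.00446). The sources used here do not say how much of this count came from the transgene.

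E proteins are the shared partners of the network. Tcf3 (chromosome 10, 80409514 to 80433647, minus strand) encodes E12 and E47, Tcf12 (chromosome 9, 71842688 to 72111871, minus strand) encodes HEB, and Tcf4 encodes E2-2. None of the 3 genes passed the test in any comparison. In uninjured hearts Tcf4 was at 18318, 17858 and 19580.5 in controls and at 18854, 22051 and 17597 after deletion, a log2 difference of 0.06 with a 95% interval of -0.15 to 0.28. The groups of Tcf4 overlapped there, as did those of Tcf3 and Tcf12. The 95% intervals of all 3 genes in uninjured hearts lay between -0.21 and 0.30.

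Under infusion Tcf12 was at 2623, 2814 and 2625 in controls and at 2577 and 2436 after deletion, and its log2 difference was -0.10 with a 95% interval of -0.31 to 0.11 (adjusted p = 0.602). Tcf4 differed by -0.17 (adjusted p = 0.493) and Tcf3 by 0.06 (adjusted p = 0.785). The groups of Tcf4 and Tcf12 did not overlap, the deleted libraries being lower, and neither difference passed the test.

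With TCF21 gain Tcf12 was at 3807, 3455 and 3534 in controls and at 4004 and 4276 in the gain libraries. Both gain libraries were above the controls, with a log2 difference of 0.20 and an interval of 0.0014 to 0.40 before adjustment (adjusted p = 0.242). Tcf3 differed by 0.06 (adjusted p = 0.801) and Tcf4 by -0.04 (adjusted p = 0.840). The sign of the Tcf4 difference depended on the scaling: it was 0.054 with the same total in each library and 0.011 after quantile normalization.

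Twist1 (chromosome 12, 33957671 to 33959829, plus strand) and Twist2 (chromosome 1, 91801461 to 91848028, plus strand) encode closely related factors that compete for the same partners, and Twist1 is known for its part in mesenchymal cells. In uninjured hearts Twist1 was at 726, 727 and 730.1 in controls and at 873, 771 and 745 after deletion. The deleted libraries lay just above a very narrow control range, with a log2 difference of 0.13 (adjusted p = 0.564). Twist1 and Tcf21 were the 2 of the 10 genes whose groups did not overlap there, beside 27.7% of all genes tested.

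Under infusion Twist1 was at 485, 431 and 427 in controls and at 664 and 730.1 after deletion, 1.56-fold higher by the means. The groups did not overlap, and the log2 difference was 0.64 with a 95% interval of 0.35 to 0.93 before adjustment. It did not pass over all genes (adjusted p = 0.0825). Of 12 alternative fits that left out no library it passed in 3. Among these were library weights (adjusted p = 0.0386) and 1 fit over all 16 libraries (adjusted p = 0.0112). With a library left out the log2 difference of Twist1 ranged from 0.57 to 0.71. It shared this lack of overlap with Tcf21, Tcf4, Tcf12, Id2 and Id3, 6 of the 10 genes, beside 35.0% of all genes tested. Twist1 differed by 0.51 more under infusion than in uninjured hearts, with an interval of 0.17 to 0.85 (adjusted p = 0.305).

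Twist2 was wider in spread than Twist1 under infusion. Under infusion it was at 196, 128 and 112 in controls and at 150.4 and 175 after deletion, with overlapping groups and a log2 difference of 0.20 (adjusted p = 0.755). With TCF21 gain the log2 difference was 0.02 for Twist1, with an interval of -0.30 to 0.33, and 0.07 for Twist2, with an interval of -0.33 to 0.47. The groups of both genes overlapped there.

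**Figure D2:**
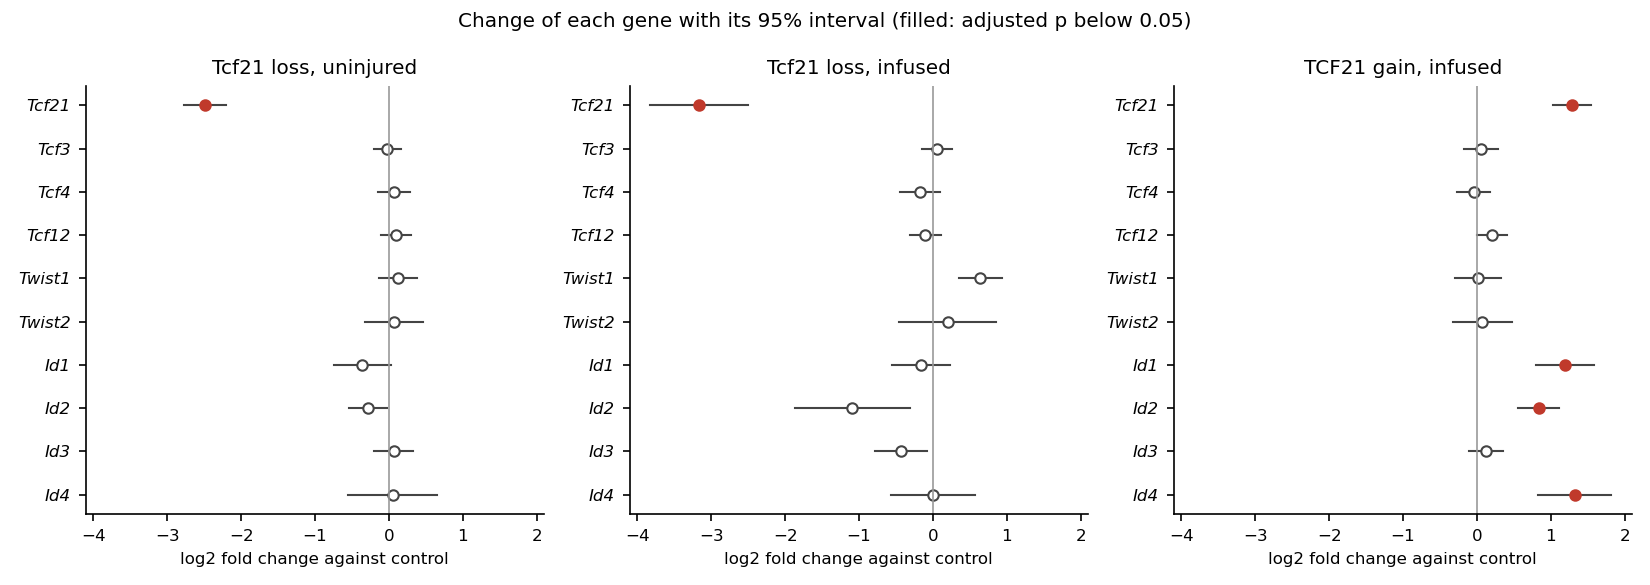
Log2 fold change against control (horizontal axis) of each gene in the 3 comparisons, with its 95% interval as a line. Filled points passed an adjusted p of 0.05: Tcf21 in all 3 comparisons, and Id1, Id2 and Id4 with TCF21 gain.

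In the gain libraries 3 of the 4 Id genes, Id1, Id2 and Id4, passed the test and were higher. Id1 (chromosome 2, 152736251 to 152737410, plus strand), Id2 (chromosome 12, 25093799 to 25097140, minus strand), Id3 (chromosome 4, 136143497 to 136145755, plus strand) and Id4 (chromosome 13, 48261228 to 48266026, plus strand) each encode an inhibitor of E proteins and are classic targets of bone morphogenetic protein (BMP) signalling through Smad1 and its relatives. Id1 was at 684, 627 and 466 in the control libraries and at 1339 and 1337 in the gain libraries. Both gain libraries lay well above the controls, 2.26-fold by the means, and Id1 rose by 1.19 on the log2 scale with an SE of 0.170 (adjusted p = 0.0150).

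Id2, per kilobase the most abundant of the 3 Id genes that rose, was at 6274, 4833 and 5834 in controls and at 10201 and 9841 in the gain libraries. The gain libraries agreed closely and stood 1.77-fold above the control mean, a log2 rise of 0.84 with an SE of 0.120 (adjusted p = 0.0152). Id4, per kilobase the scarcest Id gene, was at 222, 197 and 161 in controls and at 557 and 417 in the gain libraries. Again both gain libraries were above every control, 2.51-fold by the means, and the log2 rise was 1.32 with an SE of 0.211 (adjusted p = 0.0202).

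Id3 did not pass with its relatives. It was at 22261, 22094 and 21230.3 in controls and at 25297 and 22537 in the gain libraries. The lower gain library lay barely above the highest control, and the log2 difference was 0.13 with a 95% interval of -0.10 to 0.36 (adjusted p = 0.529). Tcf21, Tcf12 and the 4 Id genes were the 6 of the 10 genes whose groups did not overlap in the gain arm, beside 39.3% of all genes tested.

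The calls of Id1, Id2 and Id4 rested on both gain libraries. Without the gain library numbered 1 the adjusted p was 0.0796 for Id1, 0.0867 for Id2 and 0.127 for Id4, and without the one numbered 2 it was 0.0890, 0.0833 and 0.0650. Without a variance trend in the fit no gene of the 10 was called in the gain arm, and the adjusted p values were 0.0898, 0.0982 and 0.0845 for these 3 Id genes. In 1 fit over all 16 libraries Id2 also missed the threshold (adjusted p = 0.0776).

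The libraries of the gain arm differed in other cell states as well. Of 23 immediate early genes, which answer quickly to stimuli and to cell handling, 7 fell and 1 rose in the gain libraries, 22 had a log2 difference below 0, and the list summed to between 702803 and 984017 in controls and between 439989 and 517560 in the gain libraries. The 8 fibroblast markers summed to between 4295990 and 4590370 in controls and between 3014980 and 3262920 in the gain libraries, with 0 of 8 past the threshold in limma and 2 of 8 at an unadjusted p below 0.05. Cardiomyocyte markers summed to between 712 and 764 in controls and between 937 and 1002 in the gain libraries, with 1 of 7 tested, Actc1, higher. Erythroid and platelet markers summed to 72.4 to 134 in controls and 201 to 283 in the gain libraries, with Ppbp not listed and 0 of 4 tested past the threshold in limma (1 of 4 at an unadjusted p below 0.05). Endothelial sums overlapped, at 268 to 521 and 281 to 861, as did myeloid sums, at 2072 to 3358 and 2366 to 4577, and mural sums, at 4849 to 6072 and 5423 to 6313, though Des, a mural marker, rose by 0.79 on the log2 scale (adjusted p = 0.0419). The calls of Actc1 and Des were lost without a variance trend and also without the control library numbered 1. The part of these differences in the Id result was not tested.

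Deletion of Tcf21 took 0 of the 4 Id genes past the threshold in limma, with Id2 in uninjured hearts and Id2 and Id3 under infusion at an unadjusted p below 0.05. In uninjured hearts Id2 was at 6323, 5647 and 7056 in controls and at 4992, 4674 and 5950 after deletion, with a log2 difference of -0.29 (adjusted p = 0.194). Id1 was at 483, 587 and 584 in controls and at 443, 499 and 350.3 after deletion, with a log2 difference of -0.36 (adjusted p = 0.260). Both genes had lower means after deletion, with overlapping groups. Id3 differed by 0.06, with an interval of -0.20 to 0.33, and Id4 by 0.05, with an interval of -0.55 to 0.66.

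Under infusion Id2 was at 3644, 2562 and 1553 in the control libraries and at 1268 and 1036 after deletion. Every deleted library was below every control, but the controls themselves spanned more than the gap between groups. The mean was 2.25-fold lower and the log2 difference was -1.09 with a 95% interval of -1.87 to -0.31 before adjustment (adjusted p = 0.199). Of 12 alternative fits that left out no library Id2 passed in 2, of which 1 was the fit over all 16 libraries (adjusted p = 0.0339). It also passed without the control library numbered 3, the lowest of the controls (log2 difference -1.41, adjusted p = 0.0274). With a library left out the log2 difference ranged from -1.41 to -0.80.

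Id3 under infusion was at 12759.6, 9443 and 10647 in controls and at 7494 and 8671 after deletion. Its groups did not overlap either, with a log2 difference of -0.43 and an interval of -0.78 to -0.08 before adjustment (adjusted p = 0.241). Id1 differed by -0.17 (adjusted p = 0.654), and Id4 had an interval of -0.57 to 0.57. In these libraries 0 of 23 immediate early genes passed in limma, with 13 of 23 at an unadjusted p below 0.05 and 22 below 0 on the log2 scale, and the list summed to 445661 to 634614 in controls and 324905 to 378717 after deletion. Erythroid and platelet markers summed to 71.1 to 78.6 in controls and 183 to 504 after deletion, with 1 of 5 tested, Hba-a1, higher and Ppbp not listed. Myeloid markers summed to 861 to 987 and 477 to 776 in the same order, with 1 of 6 tested, Cd74, lower and Ptprc not listed. Endothelial markers summed to 279 to 312 and 374 to 380, with 0 of 7 tested past the threshold in limma and 0 of 7 at an unadjusted p below 0.05. Cdh19, a Schwann cell marker, fell by 1.44 on the log2 scale (adjusted p = 0.0323). The calls of Hba-a1, Cd74 and Cdh19 were lost without a variance trend and also without the control library numbered 2. The part of these genes and markers in the Id2 and Id3 differences was not tested.

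No gene of the 10 passed the test of whether deletion acted differently under infusion, in which 0.149% of 14130 genes were called, 0.0495% higher and 0.0991% lower. In limma 3 of the 10, Id2, Id3 and Twist1, had an unadjusted p below 0.05, beside 1642 of the 14130 genes. For Id2 the difference was -0.80 on the log2 scale, with an interval of -1.60 to -0.0032 (adjusted p = 0.427). For Id3 it was -0.50, with an interval of -0.95 to -0.04 (adjusted p = 0.391).

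The makeup of the Id family was set out for each group, in levels per kilobase of the longest transcript. Shares of a family sum to a fixed total, so in the gain arm they restate that 3 Id genes rose and Id3 did not pass, and a lower share of Id3 is not a lower level of it. Id3 made up 83.3% ± 1.56 of the summed Id level in the control libraries of the gain arm (SD, n = 3) and 74.6% ± 1.08 in the gain libraries (SD, n = 2). Id2 made up 14.0% ± 1.63 in those controls and 20.3% ± 0.848 in the gain libraries. The ranges did not overlap for any of the 4 Id genes, since Id1 went from 2.01% to 2.77% up to 4.39% to 4.82% and Id4 from 0.209% to 0.272% up to 0.454% to 0.551%. In the infused loss libraries Id2 made up 8.27% ± 1.78 (SD, n = 2), beside 12.8% ± 3.78 in controls (SD, n = 3), and those ranges overlapped.

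The level of each family relative to the summed E proteins was taken within a library, again per kilobase of the longest transcript. Tcf21 stood at 1.18 to 1.32 times the summed E-protein level in uninjured controls and at 0.177 to 0.292 after deletion. Under infusion it stood at 0.366 to 0.609 in controls and at 0.0465 to 0.0614 after deletion. In the gain arm the ratio was 0.883 to 1.08 in controls and 2.26 to 2.50 in the gain libraries.

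The summed Id level was 6.21 to 6.54 times that of the E proteins in the gain arm's controls and 7.16 to 7.92 times in the gain libraries. It was 3.71 to 4.68 times in the infused controls of the loss arm and 2.87 to 3.37 times after deletion. In uninjured hearts the ranges overlapped, at 4.98 to 6.31 in controls and 4.99 to 5.98 after deletion. The Twist level was 0.131 to 0.145 of the E-protein level in infused controls and 0.199 to 0.232 after deletion, while in the gain arm, at 0.136 to 0.158 and 0.146 to 0.151, it overlapped. Twist1 made up 79.3% to 85.6% of the summed Twist level in the same infused controls and 86.6% to 87.3% after deletion. These ratios carry no test, and their size depends on the transcript length taken for Tcf4: in uninjured controls the Id ratio was 5.71 with the longest transcript, 1.77 with the mean length of the protein-coding transcripts and 9.94 with the union of exons.

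**Figure D3:**
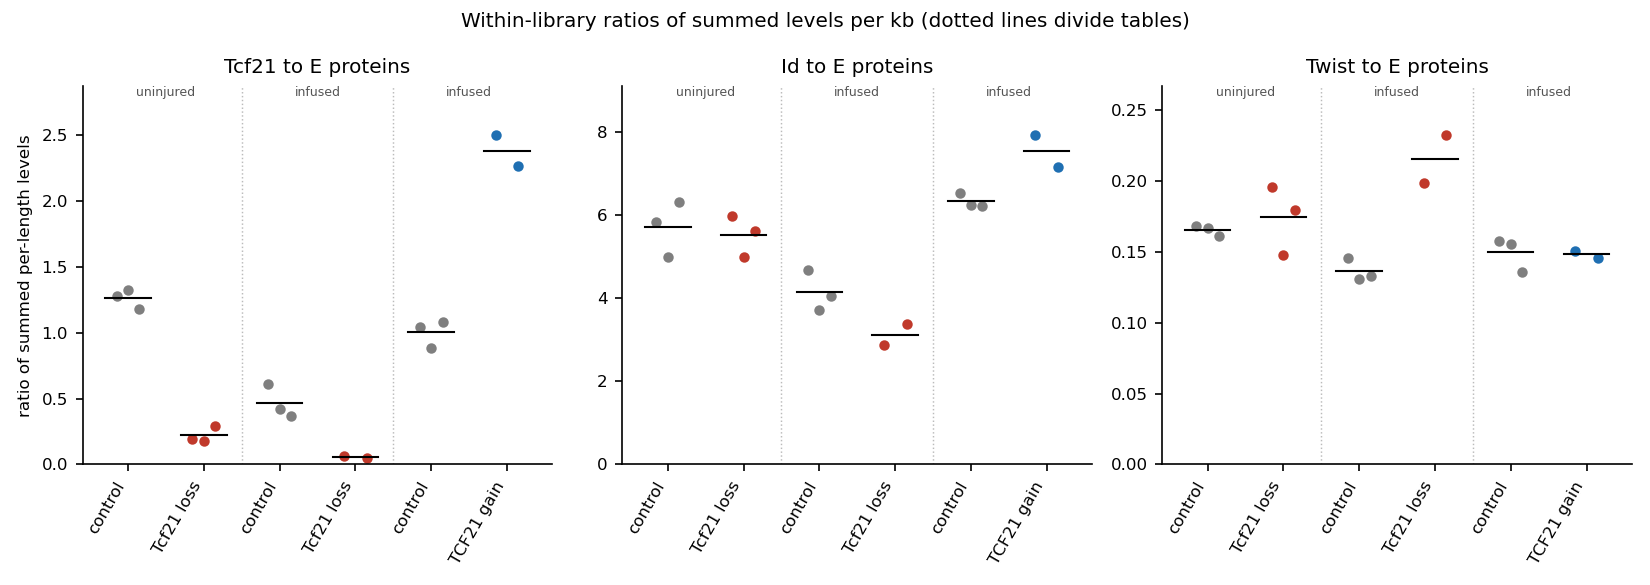
Ratio of the summed per-length level of Tcf21, the Id genes and the Twist genes to that of the 3 E-protein genes (vertical axes, from 0) in each library, with a bar at each group's mean. The ratio of Id to E proteins was higher in both gain libraries, at 7.16 and 7.92, than in their 3 controls.

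The control libraries, which had neither floxed Tcf21 nor the TCF21 transgene, gave the order of the 10 genes per kilobase. Those of the loss arm carried a Cre under the control of the Tcf21 locus, whose effect on the Tcf21 level was not tested. In uninjured controls Id3 led with 16062 ± 2363 normalized counts per kilobase (SD, n = 3), followed by Tcf21 with 4365 ± 161, Id2 with 3221 ± 358 and Tcf4 with 2167 ± 104. The ranges of these neighbours did not overlap. Tcf3 came next with 808 ± 41.5, clear of its neighbours. Tcf12, Id1 and Twist1, at 491, 475 and 447, could not be ordered beyond their spread for Tcf12 and Id1 or for Id1 and Twist1. Twist2, at 126 ± 4.53, and Id4, at 59.7 ± 6.20, were the lowest.

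In the infused controls of the loss arm Id3 again led, at 8568 ± 1314, but Id2 at 1313 ± 531, Tcf4 at 1263 ± 114 and Tcf21 at 1142 ± 383 overlapped. In the infused controls of the gain arm Tcf21, at 3251 ± 327, overlapped with Id2, at 2868 ± 375, below Id3 at 17106 ± 433. The ratio of Tcf21 to the summed E proteins averaged 1.00 in the latter controls and 0.464 in the former. These control sets differ in Cre driver, in table and in experimental arm, and the sources of that gap cannot be told apart.

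Id3 was the highest and Id4 the lowest of the 10 genes in all 3 control groups under each of 3 ways of taking transcript length. The place of Tcf4 was not stable: with the mean length of protein-coding transcripts it came second in all 3 control groups, above Tcf21, and with the union of exons it was below Tcf3 in both infused control groups. Among the E proteins Tcf4 held 62.5% ± 1.67 of the summed level in uninjured controls, 51.8% ± 1.90 in the infused controls of the loss arm and 48.6% ± 2.74 in those of the gain arm (SD, n = 3 each) with the longest transcript. In the same order its share was 82.7%, 75.7% and 73.5% with the mean length of protein-coding transcripts and 46.2%, 35.5% and 32.4% with the union of exons.

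**Figure D4:**
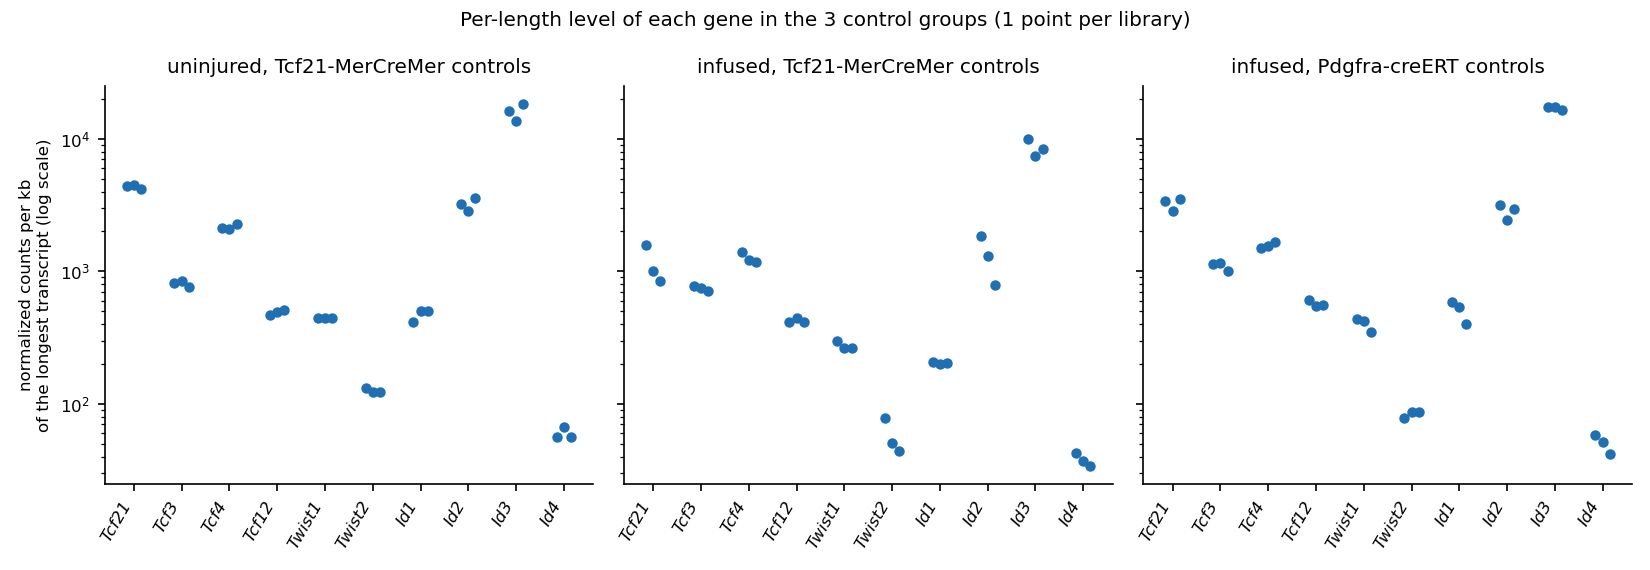
Normalized counts per kilobase of the longest transcript (vertical axis, log scale) of the 10 genes in the 3 control groups, with 1 point per library. Id3 is highest and Id4 lowest in each panel, and the points of Tcf21 are spread more widely in the infused controls of the loss arm than in the other controls.

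Promoter sequences were looked at because Id2 and Id4 rose together in the gain libraries. RefSeq promoters on GRCm38.p6, here the 250 bases before each start site, were matched for 8 of the 10 genes, with 10 promoters in all. Id1 had no entry, and Tcf4 was not searched. The search covered 4 sequences on both strands: CANNTG, the general E box, which includes the next 2; CAGCTG, an E box bound by many dimers with E proteins; CATCTG with its complement CAGATG, another E box; and GGCGCC, a GC-rich sequence known from BMP response elements bound by Smad1. The Id4 promoter (chr13:48260866-48261115, plus strand) and the 89 bases of the Id2 window that lie outside annotated exons (chr12:25096254-25096342, minus strand) are shown 5′ to 3′, with GGCGCC and CAGCTG in capitals.
Id4: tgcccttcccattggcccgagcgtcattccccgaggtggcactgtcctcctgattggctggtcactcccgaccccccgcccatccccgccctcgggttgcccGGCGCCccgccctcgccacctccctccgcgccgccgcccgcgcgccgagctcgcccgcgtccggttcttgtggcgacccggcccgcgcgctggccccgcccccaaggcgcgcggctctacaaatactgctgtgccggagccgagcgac
Id2: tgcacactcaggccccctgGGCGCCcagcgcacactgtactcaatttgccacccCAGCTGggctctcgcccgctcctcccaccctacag
GGCGCC lay 148 to 143 bases before the Id4 start and 231 to 226 bases before the Id2 start, and 9.59% of the 32851 promoters of that length hold it. G and C made up 75.6% of the Id4 window and 62.8% of the Id2 window, and that share was not matched for G and C content. CAGCTG lay 196 to 191 bases before the Id2 start and is held by 13.0% of promoters. Tcf12 held CAGCTG in 1 promoter and another E box (CAAGTG) in a second, Tcf3 held CACTTG alone, and the windows of Tcf21, Twist1, Twist2 and Id3 held none of the 4 sequences. The RefSeq start of Id2 lies within the gene as GENCODE annotates it, so 161 of its 250 window bases are exonic there, and so are all 250 of the Id3 window. CANNTG is found in 66.2% of all promoters and CATCTG or CAGATG in 14.4%. These matches describe letters only.

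Most other genes of the BMP route to the Ids did not pass the test. Of 31 such ligands, receptors, Smads and antagonists, 26 were tested in the gain arm, where 2 rose, 3 fell and 21 did not pass, beside 4.14% of all genes called. The median log2 fold change of the list was 0.12, beside 0.01 over all genes tested. In limma 12 of the 26 had an unadjusted p below 0.05, beside 3138 of all 15369 genes. Smad1, which carries the BMP signal to the nucleus, was at 2714, 2972 and 2687 in controls and at 3969 and 4229 in the gain libraries. Both gain libraries were above the controls, and Smad1 rose by 0.56 (SE 0.0875, adjusted p = 0.0196). Smad6, an inhibitory Smad induced by BMP and chosen here after its values were seen, was at 807, 929.8 and 892 in controls and at 1855 and 1396 in the gain libraries, a log2 rise of 0.88 (adjusted p = 0.0210).

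The 3 genes of the route that fell in the gain libraries all restrain signalling by ligands of this family. Chrdl1, a secreted BMP antagonist, was at 479, 444 and 560.5 in controls and at 107 and 118 in the gain libraries, and its log2 fold change was -2.12 with an interval of -2.53 to -1.71 (adjusted p = 0.00377). Fst encodes follistatin, which binds activins and some BMPs. It was at 1288, 1734 and 925 in controls and at 313 and 299.9 in the gain libraries, and its log2 fold change was -2.05 (adjusted p = 0.00898). Bambi, a decoy receptor, had a log2 fold change of -0.84 (adjusted p = 0.0204). Not all restraining genes of the route fell: the inhibitory Smad6 rose, and the antagonist gene Nbl1 differed by 0.21 with overlapping groups (limma, adjusted p = 0.556). The part of these changes in the Id result was not tested.

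The Chrdl1 call held with each library left out in turn and without a variance trend, where the calls of Smad1, Smad6, Fst and Bambi were lost. Fst lost it without the gain library numbered 2 (adjusted p = 0.0514). Smad1 and Bambi lost theirs without either gain library or without the control library numbered 1, and Smad6 without that control or the gain library numbered 1, with adjusted p values up to 0.152.

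In uninjured hearts 27 genes of the route were tested, of which 2 rose, 1 fell and 24 did not pass, with a median of 0.06. Of these 27 genes, 12 had an unadjusted p below 0.05 in limma, beside 3290 of all 15544 genes. Smad1 was at 2306, 2231 and 2257 in controls and at 1557, 1535 and 1739 after deletion. All 3 deleted libraries were below all controls, and the log2 fold change was -0.49 (adjusted p = 0.0244), the opposite sign to that in the gain arm. The gain arm was infused, however, and in infused loss Smad1 differed by only -0.01 with overlapping groups (limma, adjusted p = 0.967). Nbl1, a secreted BMP antagonist, rose by 0.62 (adjusted p = 0.00434), and Eng, an accessory receptor, by 0.48 (adjusted p = 0.0461). The calls of Smad1 and Eng were lost without any 1 of the 3 controls (adjusted p 0.0877 to 0.172) and without the deleted library numbered 2 (adjusted p 0.0541 and 0.0587), and that of Eng also without the one numbered 3 (adjusted p = 0.0536), whereas that of Nbl1 held without each library.

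Mural cell markers were lower in uninjured hearts after deletion: Cspg4, Abcc9 and Kcnj8, 3 of 8, fell, and the list summed to between 13477 and 15303 in controls and between 8902 and 9999 after deletion. In the 6 fits that left out a library the Cspg4 call held, the Abcc9 call was lost in 2 and the Kcnj8 call in 5. Myeloid markers summed to 1284 to 1415 in controls and 1435 to 2191 after deletion, with 0 of 8 past the threshold in limma and 1 of 8 at an unadjusted p below 0.05. Of the 23 immediate early genes 1 fell, Nr4a1, with a log2 fold change of -0.85 (adjusted p = 0.0227), and the list summed to 864607 to 1120760 in controls and 838771 to 913570 after deletion. The Nr4a1 call was lost in 3 of those 6 fits. Endothelial markers summed to 481 to 565 in controls and 276 to 548 after deletion, with 0 of 5 tested past the threshold in limma and 3 of 5 at an unadjusted p below 0.05. Erythroid and platelet markers summed to 191 to 204 and 201 to 1079 in the same order, with 0 of 5 tested past the threshold. The part of these markers in the results of that comparison was not tested. Under infusion 0 of 25 genes of the BMP route passed in limma, with 4 of 25 at an unadjusted p below 0.05, beside 2376 of all 14799 genes. Fst was at 820.2, 856 and 1142 in controls and at 1574 and 3323 after deletion there. Both deleted libraries were above the controls but far from each other, and the log2 difference was 1.30 with an interval of 0.56 to 2.04 before adjustment (adjusted p = 0.142). Bmp6, a BMP ligand, had a log2 difference of -0.71 (adjusted p = 0.0682).

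**Figure D5:**
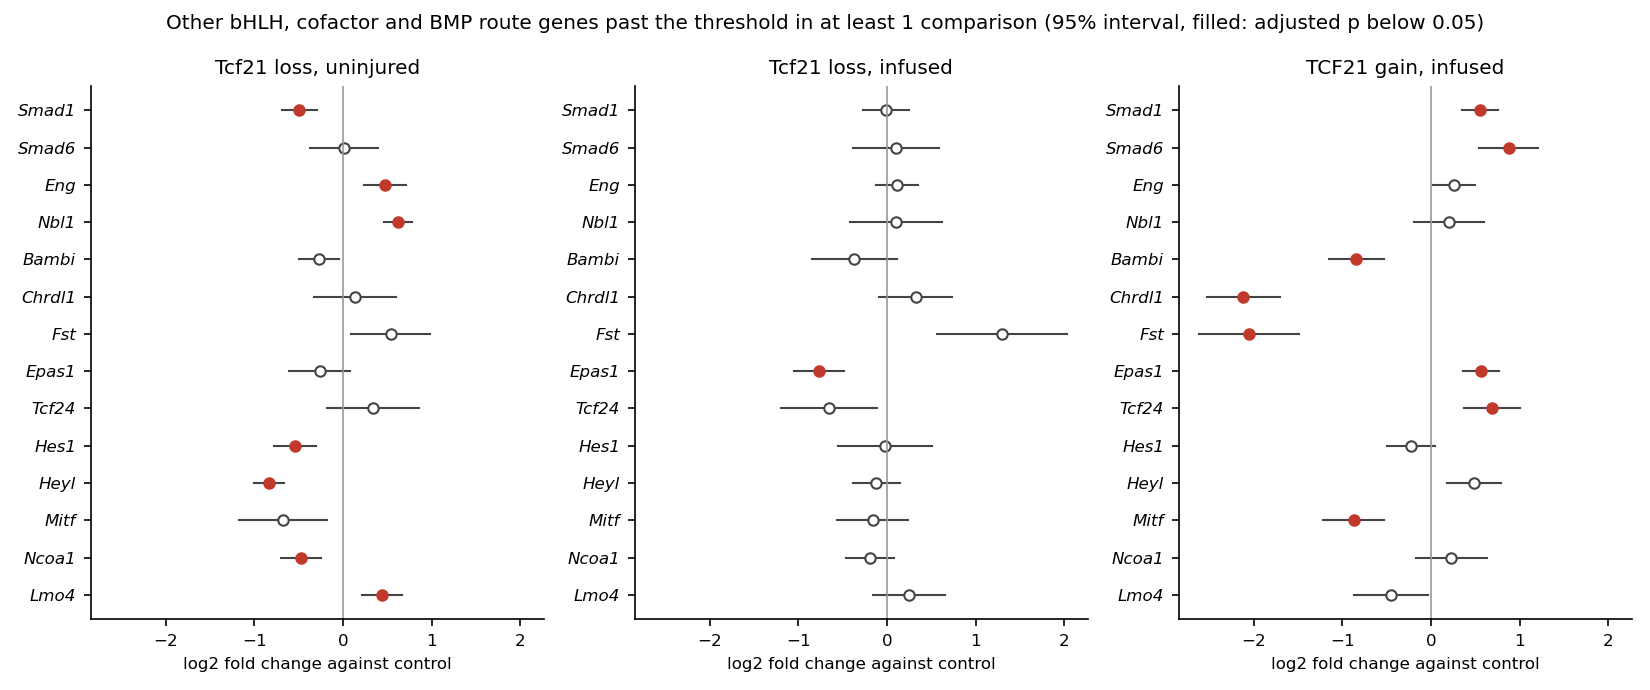
Log2 fold change against control (horizontal axis) with its 95% interval for the 14 genes of the BMP route, the other bHLH lists and the cofactor list that passed in at least 1 comparison. Filled points passed an adjusted p of 0.05. Smad1 passed in uninjured loss and in gain under infusion, with opposite signs, but differed by only -0.01 in infused loss. Epas1 passed in infused loss and in gain, with opposite signs.

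Other bHLH genes outside the network were mostly below the threshold. Of 43 further tissue-restricted class II genes, most were not listed: 8, 6 and 6 were tested in uninjured loss, infused loss and gain. In that order 0, 2 and 4 of them had an unadjusted p below 0.05 in limma. The 1 that passed was Tcf24, at 522, 551 and 509 in the gain arm's controls and 762 and 945 in the gain libraries, a log2 rise of 0.69 (adjusted p = 0.0388) that was lost without any 1 of the 5 libraries. Scx, the tendon factor scleraxis, was at 1358 to 2141 in those controls and at 649 to 1005 in the gain libraries, with a log2 difference of -1.07 (adjusted p = 0.0535).

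Among the Hes, Hey and Bhlhe40 group, the repressors that answer to Notch and other signals, 2 of 7 tested fell in uninjured hearts. Heyl was at 19716, 19350.0 and 19972 in controls and at 12006, 10702 and 10448 after deletion. The groups were tight and far apart, and the log2 fold change of -0.83 (SE 0.0765, adjusted p = 0.00112) held with each library left out in turn. Heyl is a Notch target and is also abundant in mural cells, whose markers were lower in the same libraries. Hes1 had a log2 fold change of -0.54 (adjusted p = 0.0309), a call lost in 4 of the 6 fits that left out a library. In the other comparisons 0 of 7 passed in limma, with 1 of 7 under infusion and 2 of 7 in the gain arm at an unadjusted p below 0.05.

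Of the leucine zipper and PAS classes, which pair among themselves and not with E proteins, 35, 31 and 35 genes were tested. In that order 12, 6 and 11 of them had an unadjusted p below 0.05 in limma. Epas1, the hypoxia factor HIF-2alpha, was at 2214, 1814 and 1888 in infused controls and at 1094 and 1222 after deletion. With gain it was at 2053, 1999 and 2167 in controls and at 3179 and 2950.2 in the gain libraries. Neither pair of groups overlapped, with a log2 fold change of -0.76 under infused loss (adjusted p = 0.0477) and 0.56 with gain (adjusted p = 0.0184). The infused loss call was lost without any 1 of its 5 libraries, and the gain call without either gain library or the control numbered 1, with adjusted p values of 0.0591 to 0.225 over all of these. Mitf had a log2 fold change of -0.87 with gain (adjusted p = 0.0224), and Ncoa1, a nuclear receptor coactivator, one of -0.48 in uninjured hearts (adjusted p = 0.0398). The Mitf call was lost in 4 of 5 fits that left out a library, and the Ncoa1 call in 5 of 6.

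The cofactors that E proteins and their complexes recruit showed little. Of 13 genes, including Ep300, Crebbp, Ldb1 and the Runx1t1 family, 1 passed in uninjured hearts: Lmo4, an adaptor of LIM domain complexes, with a log2 rise of 0.44 (adjusted p = 0.0486) that was lost in 5 of the 6 fits that left out a library. In the infused loss and gain comparisons 0 of 13 passed in limma, with 3 of 13 at an unadjusted p below 0.05 in each. Over all genes tested 2376 of 14799 and 3138 of 15369 were below that level.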

How the data were processed

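Sorted fibroblast RNA was amplified with the SMART-seq V4 low-input kit, per the labels' protocols. The submitters' processing notes name kallisto, DESeq2 and GRCm38, without versions in the sources used here. The deposited tables hold a normalized signal, that is, estimated counts per gene that the authors divided by normalization factors in each table. Only 35.6% to 67.4% of low values lay within 0.03 of a whole read, so no count test was run. Every library column was used, and Pearson's r between libraries of the same table ran from 0.945 to 0.984.

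The filter kept genes averaging 10 or more in a table. The test was limma 3.58.1 (R 4.3.3) with a variance trend on log2 of value plus 1, two-sided, on the groups compared and no others, adjusted by Benjamini-Hochberg over every gene kept. This scale understates fold changes of low genes. The interaction contrast took the 4 loss groups. The tests against control within each table were first run on simulated data, and the interaction contrast was not. Transcript lengths came from GENCODE vM21 (GRCm38).

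The 10 genes and the gene lists were chosen with earlier results of these data known. The text names the 10 genes, up to 4 genes of each list by smallest p in each comparison, and genes said to be chosen otherwise; 3 list genes were matched under newer symbols (Bmal1, Bmal2, Ccn1). No label states that replicate numbers pair libraries. Alternatives changed the pseudocount, filter, scaling, variance model, library weights, samples in the fit, replicate block and transcript length, or left out a library.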

Additional observations from a re-analysis of the deposited data

How the results depend on the processing

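With 3 libraries against 2 or 3, the calls rest on few libraries and on the variance model, while the directions of the called genes among the 10 did not change under any alternative run. The number of genes called in uninjured loss was 557; it was 94 without a variance trend, 949 with library weights, 1106 in 1 fit over all 16 libraries, 227 with the replicate block and 88 to 891 with a library left out. In infused loss it was 135, against 72, 308, 348, 1462 and 32 to 175 in that order. In gain it was 637, against 25 without a trend, 1013 with weights, 1842 with the block and 124 to 821 with a library left out. For the difference between the loss effects it was 21, against 39 with weights, 39 in 1 fit over all 16 libraries, 79 with the block and 12 to 57 with a library left out.

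Of the 10 genes, 1 was called in infused loss; library weights gave 2, the fit over all 16 libraries 3, the replicate block 3 and leaving a library out 0 to 2. In gain 4 were called, with 0 without a variance trend and 1 to 4 with a library left out (1 without either gain library). For the difference between the loss effects 0 were called, with 1 under the block, which was Id2 (-1.13, adjusted p = 0.0155). The block also carried Id2 (-1.41, adjusted p = 0.000120) and Twist1 (0.61, adjusted p = 0.0386) past the threshold in infused loss. Replicate numbers are only names here: same-numbered libraries deviated together with r of -0.0538 to 0.0254 in uninjured loss, -0.0425 and 0.176 in infused loss, and 0.0622 and 0.0953 in gain. The block in the arms with 2 treated libraries leaves the control numbered 3 without weight, and the cause of the higher counts was not tested.

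Scaling each library to the same total moved the median of all genes in gain from 0.01 to 0.10 and the split of calls from 242 higher and 395 lower to 340 higher and 266 lower; for the difference between loss effects it moved from 7 higher and 14 lower to 9 and 11.

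With length as the mean of protein-coding transcripts, the ratios to E proteins in uninjured, infused loss and gain controls were 0.429, 0.174 and 0.390 for Tcf21, 1.77, 1.40 and 2.23 for Id, and 0.0514, 0.0460 and 0.0526 for Twist. With the union of exons they were 2.26, 0.774 and 1.62 for Tcf21, 9.94, 6.65 and 9.88 for Id, and 0.373, 0.288 and 0.307 for Twist.

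Signs that turned belonged to small differences, none of them called. In uninjured loss Tcf4 (-0.033) and Id3 (-0.028) turned under quantile normalization and Id4 (-0.12) with library weights; with a library left out Tcf3 ranged from -0.061 to 0.012, Tcf4 from -0.028 to 0.13, Twist2 from -0.048 to 0.20, Id3 from -0.051 to 0.16 and Id4 from -0.23 to 0.28. In infused loss Id4 turned under quantile normalization (0.027) and library weights (0.018), and ranged from -0.30 to 0.30 with a library left out. In gain Tcf3 (-0.0073) and Twist1 (-0.080) turned with the replicate block, Twist1 with library weights (-0.034), and Tcf4 under quantile normalization (0.011) and the same total (0.054); with a library left out Tcf3 ranged from -0.016 to 0.13, Tcf4 from -0.11 to 0.024 and Twist1 from -0.080 to 0.076. In the difference between loss effects Twist2 turned with the block (-0.042) and Id4 with library weights (0.14), and with a library left out they ranged from -0.042 to 0.36 and from -0.35 to 0.24. The cause of these turns was not tested. Where an arm keeps 1 library, its spread is assumed to be that of the other group.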

Other observations

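Genes whose course over the 16 libraries was most like that of each of the 4 genes that rose with gain were found by the mean absolute difference of log2 deviations from the control mean of their table, over 11209 genes with a mean of at least 50. For Tcf21 they were Xdh (0.437), Kcnn3 (0.488) and Csf2rb2 (0.524), beside a median gene at 1.14. These 3 were picked for this likeness, so their lower values in both loss comparisons follow in large part from the choice. In gain the mean log2 deviation was -0.51 for Xdh, 1.598 for Kcnn3 and 0.14 for Csf2rb2, beside 1.29 for Tcf21. Within the network Id2 was nearest to Tcf21 (0.801, place 62 of the 11209) and then Id1 (0.924, place 250), while Twist1 was the farthest (1.22). For Id4 the nearest were Cox4i2 (0.177) and then Id1 (0.208), and Id4 stood at place 29 for Id1. For Id1 the nearest were Syk (0.141), Tnfrsf21 (0.158) and Nuak2 (0.163), and for Id2 Arrb1 (0.187), Enpp3 (0.217) and Fmnl1 (0.218). These values share libraries and tables, and describe likeness only.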
